A study of Arabidopsis thaliana with 24 samples.

Results

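The 51 genes described here encode the late embryogenesis abundant (LEA) proteins of Arabidopsis thaliana, dehydrins included. They were chosen as the rows of the deposited count table whose gene identifier stands in a fixed list of 51, out of 33612 genes in that table. By protein family they are 10 dehydrins, 18 LEA_4 genes, 6 seed maturation protein (SMP) genes, 4 LEA_3 genes, 3 genes each of LEA_1, LEA_2 and PvLEA18, and 2 genes each of LEA_5 and AtM. RNA was sequenced from whole seedlings, 9 days old, under 4 genotype labels: pklpif4 (given in the labels as pkl-1pif4), pkl (pkl-1), pif4 and WT. There were 3 libraries per genotype, labelled as biological replicates, and total counts per library lay between 37762216 and 56492669. The labels place these seedlings in continuous white light and carry the number 28, which was read here as a growth temperature. That condition rests on names alone, because the tables for red-light samples are identical to those analysed and add no data. Neither the allele of pif4 nor the accession of the plants is given in the sources used here.

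LEA proteins are small, very hydrophilic proteins that accumulate when seeds dry out at the end of embryo development and when vegetative tissue meets drought, cold or abscisic acid (ABA). Many have no fixed structure in water and are thought to shield membranes and other proteins as cells lose water. In seeds they are switched on by the transcription factors ABI3 and ABI5, which act at RY elements and at ABA-responsive elements of the promoter, whereas several dehydrins and the COR15 genes answer to cold through the C-repeat element. PKL (PICKLE) is an ATP-dependent CHD3-type remodelling protein needed to hold embryo genes silent once a seed has germinated, and PIF4 is a bHLH transcription factor that binds G-boxes and promotes growth in warmth.

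The transcripts of the labelled genes do not settle the labels. PKL averaged 104 ± 2.64 CPM (library-normalised; mean ± SD, n = 3, as for all such values below) in the pklpif4-labelled libraries, 103 ± 4.03 CPM in pkl, 91.8 ± 3.34 CPM in the pif4-labelled libraries and 97.3 ± 4.12 CPM in WT, so its level does not separate the pkl libraries from WT. PIF4 averaged 148 ± 1.09 CPM in the pklpif4-labelled libraries, 65.8 ± 2.97 in pkl, 174 ± 3.36 in the pif4-labelled libraries and 100.4 ± 4.56 in WT, and was thus higher, not lower, under both labels that name pif4. An allele can leave its transcript in place, and these libraries are therefore called pif4-labelled and pklpif4-labelled throughout. In whole seedlings, fewer cells of a type and less RNA per cell cannot be told apart.

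The regions before the starts of 6 LEA genes are shown because they span the responses described below. EM1, AT2G21490 and AT5G44310 were among the genes most raised in the pklpif4-labelled libraries, LEA4-5 had 2 ABA-responsive elements, and ERD10 and LEA14 were lower there. They were picked after the values were seen. Each is written 5′ to 3′ on the strand of its gene, read from the RefSeq genome sequence (TAIR10.1, whose nuclear chromosomes carry TAIR10 positions), and ends at the base before the annotated start or, for EM1, 26 bases earlier, where the RefSeq gene model begins. Capitals mark matches, on either strand, to the ABA-responsive element ACGTGNC, the RY element CATGCA, the C-repeat or dehydration-responsive core CCGAC and the G-box CACGTG.
EM1, chr3:19214498-19214721, plus strand: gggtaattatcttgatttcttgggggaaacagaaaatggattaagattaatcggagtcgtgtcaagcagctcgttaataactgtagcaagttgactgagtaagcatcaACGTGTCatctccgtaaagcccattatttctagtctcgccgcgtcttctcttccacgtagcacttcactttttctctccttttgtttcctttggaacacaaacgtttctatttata
AT2G21490, chr2:9207126-9207375, minus strand: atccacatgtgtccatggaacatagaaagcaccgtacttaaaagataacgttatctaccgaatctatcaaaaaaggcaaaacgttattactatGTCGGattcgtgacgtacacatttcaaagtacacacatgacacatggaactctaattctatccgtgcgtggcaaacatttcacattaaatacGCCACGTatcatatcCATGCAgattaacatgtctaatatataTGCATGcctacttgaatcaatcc
AT5G44310, chr5:17849537-17849786, minus strand: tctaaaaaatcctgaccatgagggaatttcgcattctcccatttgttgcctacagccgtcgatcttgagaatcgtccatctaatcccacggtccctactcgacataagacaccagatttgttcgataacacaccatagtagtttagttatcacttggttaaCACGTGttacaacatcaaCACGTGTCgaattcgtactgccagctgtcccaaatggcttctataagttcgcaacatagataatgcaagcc
LEA4-5, chr5:2090431-2090680, minus strand: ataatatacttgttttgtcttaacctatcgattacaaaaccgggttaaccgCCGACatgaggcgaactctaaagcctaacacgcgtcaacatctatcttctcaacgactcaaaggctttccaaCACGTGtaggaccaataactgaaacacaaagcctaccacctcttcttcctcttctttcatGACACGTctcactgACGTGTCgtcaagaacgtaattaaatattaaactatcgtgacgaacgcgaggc
ERD10, chr1:7089607-7089856, minus strand: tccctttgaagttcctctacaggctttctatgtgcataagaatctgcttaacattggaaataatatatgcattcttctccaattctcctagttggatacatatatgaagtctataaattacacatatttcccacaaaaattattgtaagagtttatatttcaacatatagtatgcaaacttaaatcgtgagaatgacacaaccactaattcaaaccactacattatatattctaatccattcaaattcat
LEA14, chr1:172949-173198, minus strand: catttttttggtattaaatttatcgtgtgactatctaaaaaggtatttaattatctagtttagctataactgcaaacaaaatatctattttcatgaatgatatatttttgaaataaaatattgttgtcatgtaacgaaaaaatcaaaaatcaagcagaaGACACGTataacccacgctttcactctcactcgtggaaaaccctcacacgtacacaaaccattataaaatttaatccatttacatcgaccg
EM1 carried ACGTGTC, with its first base 142 bases before the start. AT2G21490 carried an ABA-responsive element at 65 bases, RY elements at 50 and 23 bases and the C-repeat core at 157 bases before its start. In AT5G44310 the ABA-responsive element overlapped a G-box, so that both matches share 5 bases. ERD10 held none of the 4 motifs.

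Over the window from 250 bases before to 50 bases after the start, ACGTGNC was found in 28 of the 51 LEA genes (54.9%), against 11.1% of 26709 protein-coding nuclear genes. The G-box was found in 24 (47.1%, against 8.15%), the C-repeat core in 23 (45.1%, against 16.5%) and the RY element in 11 (21.6%, against 8.88%). A G-box can contain the core of an ABA-responsive element, so these counts are not independent. Among the 24 LEA genes that were at least 16-fold higher in the pklpif4-labelled libraries than in WT, 22 held ACGTGNC (91.7%), 18 the G-box (75%), 13 the C-repeat core (54.2%) and 8 the RY element (33.3%). The 2 without ACGTGNC were AT2G42560 and ECP31. The 24 include 5 genes that had enough counts for the test only in the pklpif4-labelled libraries, and without them 18 of 19 held ACGTGNC (94.7%), 16 the G-box, 11 the C-repeat core and 6 the RY element. Of the 9 LEA genes that were higher by less than 16-fold, 3 held ACGTGNC, as did 2 of the 9 that were lower and 1 of the 9 that were not called or not tested. The C-repeat core was found in 5 of the 9 lower genes, among them COR47, COR15A and COR15B, a share (55.6%) like that of the 24 (54.2%). The division at 16-fold was set after the values were seen. Only 21 of the 51 starts are the same in the deposited table and in RefSeq, and some counts depend on the start used. At the RefSeq starts ACGTGNC was found in 22 of the 24 genes, in 5 of the 9 that were higher by less than 16-fold and in 1 of the 9 that were lower, against 10.4% of the protein-coding genes. The C-repeat core was then in 15 of the 24 and in 2 of the 9 lower genes, so its share in the lower genes rests on the choice of start. A match is a match of letters and not a shown binding site.

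**Figure D1:**
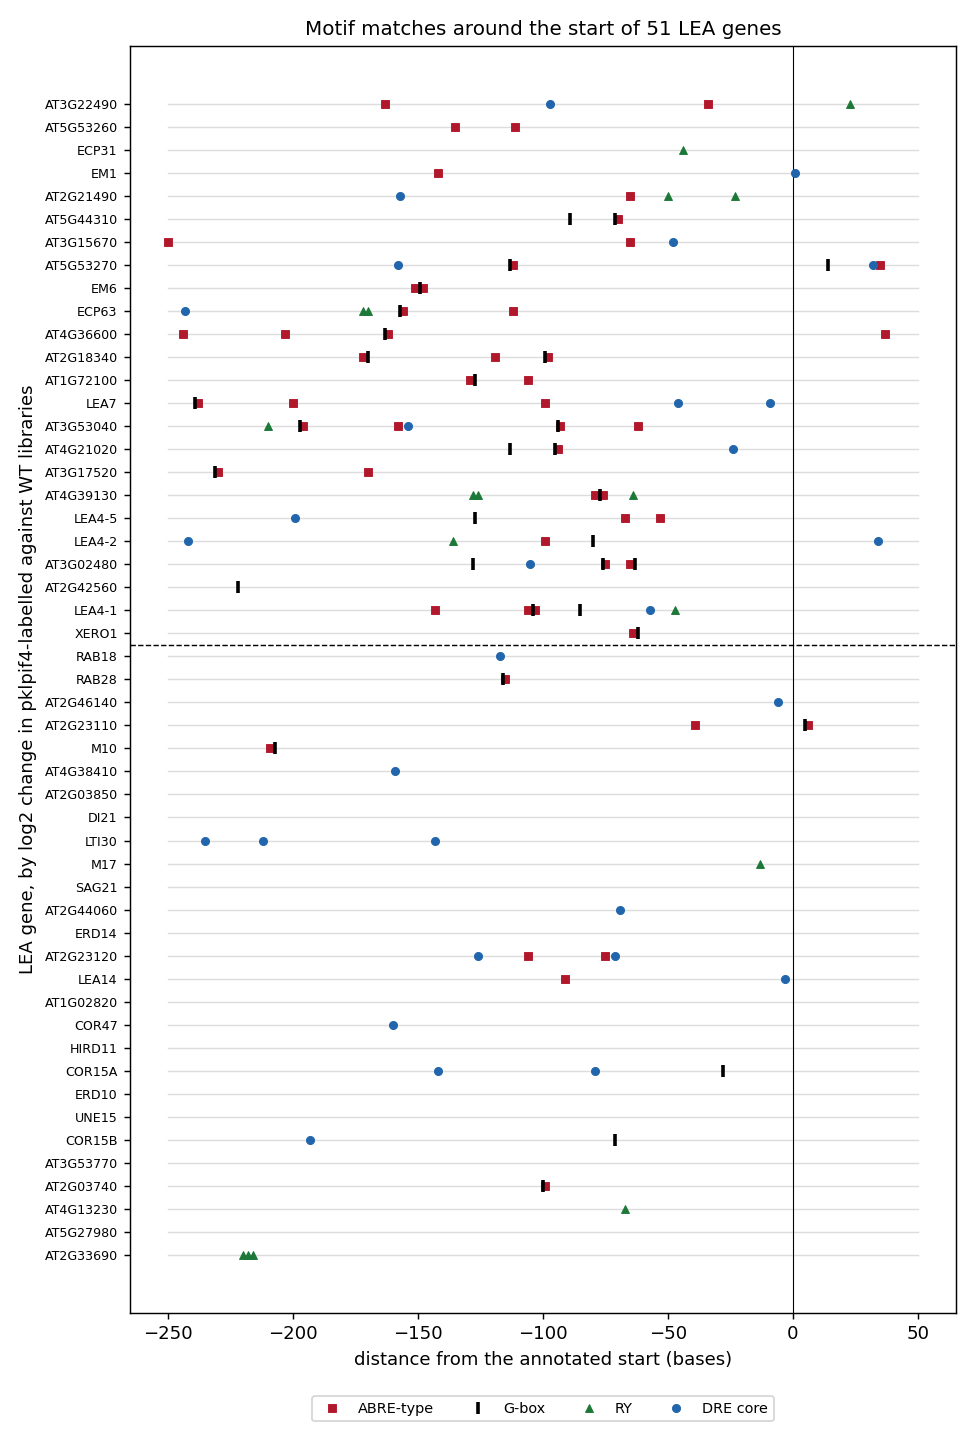
Positions of 4 motifs in the window from 250 bases before to 50 bases after the annotated start (0) of 51 LEA genes. Genes run from the highest to the lowest fitted log2 change in pklpif4-labelled against WT libraries, with the untested genes last; above the dashed line are the 24 genes that were at least 16-fold higher, of which 22 hold an ABRE-type match (ACGTGNC, red squares).

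Across the whole family, the pklpif4-labelled libraries stood apart from the other genotypes. Of 46 LEA genes tested with edgeR, 42 were called in the pklpif4-labelled libraries against WT, 33 higher and 9 lower. Among all 22130 genes tested 54.8% were called, 27.2% higher and 27.7% lower. At least 2-fold higher were 29 LEA genes (8.25% of all genes tested), and at least 2-fold lower were 4 (4.66%). The median log2 change of the 46 LEA genes was 4.96, and that of all tested genes was -0.0018. It was 2.14 over the 41 LEA genes that did not enter the test through the pklpif4-labelled libraries alone. In pkl, 29 LEA genes were higher and 8 lower than in WT (background 53.6% called, 27.1% and 26.5%), with a median log2 change of 0.84. There 20 were at least 2-fold higher (7.96%) and 2 at least 2-fold lower (2.93%). In the pif4-labelled libraries, 20 were higher and 13 lower than in WT (background 32.5% called, 16.2% each way), with a median of 0.68. There 16 were at least 2-fold higher (3.88%) and 5 at least 2-fold lower (2.33%). These 3 comparisons share the WT libraries.

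Not all 51 genes could be tested. AT2G03740 and AT2G33690 had no count in the 12 libraries, and AT3G53770, AT4G13230 and AT5G27980 had too few for the test. AT3G53770 had 18 counts in the pklpif4-labelled libraries, 0 in pkl, 6 in the pif4-labelled libraries and 2 in WT, and AT5G27980 had 15, 3, 9 and 9 in that order. AT4G13230 had 4 to 6 counts per genotype. A further 5 genes, AT2G18340, AT3G22490, ECP31, AT5G53260 and AT5G53270, entered the test only through their counts in the pklpif4-labelled libraries, so that a difference was built into their entry. Without them, 28 of 41 genes were higher and 9 lower in the pklpif4-labelled libraries than in WT. On the same 41 genes the counts were 28 and 7 in pkl (median log2 change 0.93), and 19 and 12 in the pif4-labelled libraries (0.61).

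**Figure D2:**
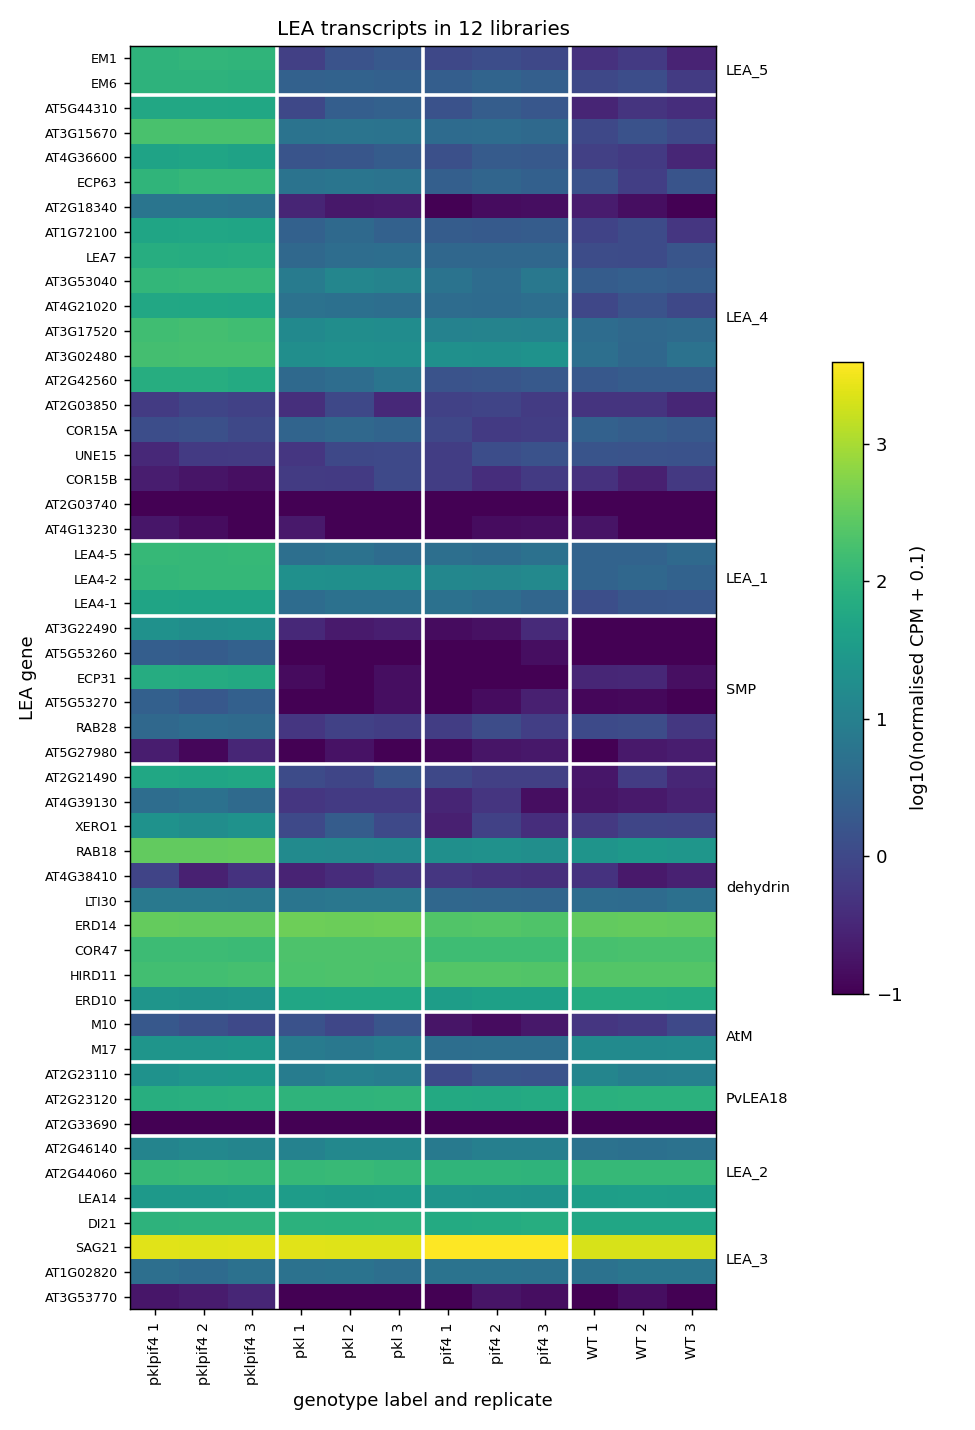
Level of each of the 51 LEA genes in each of the 12 libraries, as log10 of normalised CPM + 0.1, with genes in rows grouped by family and libraries in columns grouped by genotype label. The LEA_5, LEA_1 and most LEA_4 and SMP rows are brightest in the 3 pklpif4-labelled columns, whereas the LEA_2 rows differ little between columns.

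The LEA_5 genes EM1 and EM6 encode the group 1 LEA proteins, which bind water in the maturing seed. EM1 had 96.9, 106 and 101 CPM in the pklpif4-labelled libraries, 0.645, 1.37 and 1.79 in pkl, 0.899, 1.1 and 0.893 in the pif4-labelled libraries and 0.344, 0.509 and 0.189 in WT. Every pklpif4-labelled library lay far above the other 9, and WT was lowest. EM1 (AT3G51810; chr3:19214748-19215831) was higher by 8.17 ± 0.16 on the log2 scale (± SE, as below) in the pklpif4-labelled libraries than in WT (edgeR, adjusted p = 4.16e-23). Its change against WT was 1.80 ± 0.33 in pkl and 1.46 ± 0.35 in the pif4-labelled libraries, both past the threshold (adjusted p = 5.56e-05 and 0.00194). EM6 had 94.8, 91.5 and 88.2 CPM in the pklpif4-labelled libraries, 2.6, 2.7 and 2.49 in pkl, 2.23, 2.91 and 2.41 in the pif4-labelled libraries and 0.904, 1.12 and 0.541 in WT. EM6 (AT2G40170; chr2:16779552-16780258) thus showed the same order of genotypes, with no overlap between the pklpif4-labelled libraries and the rest, and log2 changes against WT of 6.72 ± 0.10, 1.58 ± 0.16 in pkl and 1.54 ± 0.16 under the pif4 label (adjusted p = 1.86e-82, 8.84e-16 and 1.25e-14).

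The LEA_4 family is the largest, and most of its members are seed proteins with long amphipathic repeats. Of 16 LEA_4 genes tested, 12 were higher (1 of them, AT2G18340, tested only through its counts there) and 3 lower in the pklpif4-labelled libraries than in WT, 12 were higher and 1 lower in pkl, and 10 were higher and 1 lower in the pif4-labelled libraries. The shares over all genes tested were 27.2% higher and 27.7% lower, 27.1% and 26.5% in pkl, and 16.2% each way under the pif4 label. The summed level of the LEA_4 genes was 1102 ± 18.4 CPM in the pklpif4-labelled libraries, 83.6 ± 7.77 in pkl, 60.8 ± 2.36 in the pif4-labelled libraries and 22.5 ± 0.711 in WT. AT5G44310 had 56.3, 56.6 and 53.6 CPM in the pklpif4-labelled libraries, 0.902, 2.3 and 2.58 in pkl, 1.35, 2.15 and 1.69 in the pif4-labelled libraries and 0.199, 0.382 and 0.297 in WT. The pkl and pif4-labelled libraries overlapped each other and lay above WT, and the pklpif4-labelled ones lay above all. AT5G44310 (chr5:17847781-17849536) rose by 7.61 ± 0.32 on the log2 scale (adjusted p = 4.41e-09), against 2.71 ± 0.50 in pkl and 2.61 ± 0.51 in the pif4-labelled libraries.

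AT3G02480 had 167, 173 and 176 CPM in the pklpif4-labelled libraries, 18.9, 20.5 and 19.5 in pkl, 20.4, 19.7 and 21.6 in the pif4-labelled libraries and 4.68, 3.39 and 5.22 in WT. AT3G02480 (chr3:512312-513027) was the LEA_4 gene with the highest mean FPKM over the 12 libraries, and its pkl and pif4-labelled values overlapped. It rose by 5.27 ± 0.06 in the pklpif4-labelled libraries, 2.14 ± 0.07 in pkl and 2.21 ± 0.07 in the pif4-labelled libraries, all on the log2 scale against WT (adjusted p = 4.58e-91, 1.94e-48 and 2.11e-49). AT3G15670 averaged 190.3 ± 0.862 CPM in the pklpif4-labelled libraries, 5.58 ± 0.128 in pkl, 3.93 ± 0.275 in the pif4-labelled libraries and 1.05 ± 0.259 in WT, a log2 change of 7.52 ± 0.08 under the pklpif4 label, which does not differ from that of AT5G44310 beyond the SE. ECP63, an embryonic cell protein, and LEA7 rose there by 6.59 ± 0.10 and 5.92 ± 0.10. The other members AT1G72100, AT3G17520, AT3G53040, AT4G21020 and AT4G36600 rose by 5.40 to 6.59 in the pklpif4-labelled libraries, by at least 1.81 in pkl and by 1.34 to 2.02 in the pif4-labelled ones. AT2G42560 was another case, higher in the pklpif4-labelled libraries (5.17 ± 0.11) and in pkl (1.24 ± 0.14), while its change under the pif4 label, -0.30 ± 0.17, was not called. AT2G18340 had 788 counts over the 3 pklpif4-labelled libraries, 20 in pkl, 4 in the pif4-labelled libraries and 9 in WT, and overlaps the opposite-strand gene AT2G18350 over 6.36% of its exon bases.

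The lower LEA_4 genes were COR15A, COR15B and UNE15. COR15A and COR15B encode chloroplast proteins that stabilise membranes in freezing, and they lie side by side (AT2G42540; chr2:17711032-17712330) (AT2G42530; chr2:17709036-17709945). COR15A had 1.1, 1.25 and 0.886 CPM in the pklpif4-labelled libraries, 2.96, 3.53 and 2.93 in pkl, 0.856, 0.506 and 0.571 in the pif4-labelled libraries and 2.53, 2.16 and 1.86 in WT. COR15A was below WT in every pklpif4-labelled and every pif4-labelled library, with log2 changes of -1.02 ± 0.25 and -1.76 ± 0.27 (adjusted p = 0.000275 and 2.06e-08). Its value in pkl, 0.51 ± 0.23, stood at the threshold (adjusted p = 0.05) and lost the call without any pkl replicate (0.42 to 0.56), without WT replicate 2 or 3 (0.50 and 0.41) and without pklpif4 replicate 1 or 2 (0.51 each). COR15B had 0.132, 0.082 and 0.0521 CPM in the pklpif4-labelled libraries, 0.534, 0.497 and 0.953 in pkl, 0.578, 0.295 and 0.496 in the pif4-labelled libraries and 0.344, 0.153 and 0.486 in WT. COR15B was lowest in the pklpif4-labelled libraries, where it had 12 counts in all against 43 in WT (log2 -1.83 ± 0.65, adjusted p = 0.0132), and the call was lost without WT replicate 3 (-1.48) or pklpif4 replicate 3 (-1.60). Their longest identical exon stretch is 31 bases, and the treatment of reads that fit both genes is not given in the sources used here. AT2G03850 was not called in edgeR against WT under any label, with 89 counts in the pklpif4-labelled libraries, 65 in pkl, 90 in the pif4-labelled libraries and 45 in WT. UNE15, named after an embryo sac mutant, averaged 0.425 ± 0.159 CPM in the pklpif4-labelled libraries against 1.4 ± 0.06 CPM in WT (log2 -1.72 ± 0.38, adjusted p = 5.24e-05).

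The 3 LEA_1 genes are expressed in dry seed and contribute to drought tolerance, and all rose under each mutant label. LEA4-5 had 121, 115 and 121 CPM in the pklpif4-labelled libraries, 4.6, 5.28 and 4.07 in pkl, 4.69, 4.05 and 5.16 in the pif4-labelled libraries and 2.77, 2.78 and 3.65 in WT. The pkl and pif4-labelled libraries overlapped and lay just above WT, and the pklpif4-labelled ones were far higher. LEA4-5 (AT5G06760; chr5:2089492-2090430) rose by 5.29 ± 0.08, against 0.62 ± 0.11 in pkl and 0.61 ± 0.11 under the pif4 label (adjusted p = 3.85e-83, 3.56e-07 and 1.40e-06). LEA4-2 had 109.9, 116 and 115 CPM in the pklpif4-labelled libraries, 19.8, 19 and 19.7 in pkl, 13.2, 12.7 and 14.4 in the pif4-labelled libraries and 2.86, 3.31 and 2.65 in WT. For LEA4-2 (AT2G35300; chr2:14862901-14863387) the 4 genotypes did not overlap and formed a staircase, with log2 changes of 5.27 ± 0.07, 2.73 ± 0.08 in pkl and 2.19 ± 0.08 under the pif4 label (adjusted p = 3.60e-87, 6.87e-55 and 2.85e-44). The pair therefore reached a like rise under the pklpif4 label from unlike changes under the other labels. LEA4-1 rose by 4.99 ± 0.12, 1.68 ± 0.14 and 1.52 ± 0.14 under the pklpif4, pkl and pif4 labels.

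The SMP genes, which accumulate late in seed development, were close to 0 outside the pklpif4-labelled libraries. Their summed level was 93.8 ± 4.58 CPM there, 0.803 ± 0.0795 CPM in pkl, 1.02 ± 0.327 CPM in the pif4-labelled libraries and 1.1 ± 0.412 CPM in WT. Most of the pklpif4-labelled sum came from ECP31 (66 ± 3.86 CPM) and AT3G22490 (19.4 ± 1.38 CPM), which entered the test only through those libraries. RAB28, which did not, averaged 3.77 ± 0.341 CPM there, 0.57 ± 0.123 in pkl, 0.75 ± 0.263 in the pif4-labelled libraries and 0.844 ± 0.338 in WT. All 5 tested SMP genes were called higher in the pklpif4-labelled libraries than in WT, but 4 of them entered the test only through those libraries, RAB28 being the exception. Because low counts were mostly even, 6 counts over a genotype's 3 libraries were taken as the limit of detection. Against a genotype with 0 counts a fold is given as a bound at that limit, which leaves out the counting error of the other genotype. Against 1 to 6 counts it is given as a ratio with its exact 95% interval, which covers counting error only. ECP31 had 69.9, 65.7 and 62.2 CPM in the pklpif4-labelled libraries, 0.0368, 0 and 0.0465 in pkl, 0, 0 and 0 in the pif4-labelled libraries and 0.217, 0.229 and 0.0541 in WT. ECP31 (AT3G22500; chr3:7971625-7972907), an embryonic cell protein, had 8775 counts in the pklpif4-labelled libraries, 4 in pkl, 0 in the pif4-labelled libraries and 23 in WT. ECP31 was 8.54 ± 0.15 higher on the log2 scale in the pklpif4-labelled libraries than in WT and at least 1483-fold higher than in the pif4-labelled ones. These are given as sizes only, because ECP31 entered the test only through the pklpif4-labelled libraries. Against WT, ECP31 was 6.1-fold lower in pkl (interval 1.42 to 58.6) and at least 3.92-fold lower in the pif4-labelled libraries, called by edgeR but not by limma-trend on the deposited FPKM.

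AT3G22490 had 20.9, 18.1 and 19.3 CPM in the pklpif4-labelled libraries, 0.239, 0.118 and 0.14 in pkl, 0.0428, 0.0632 and 0.248 in the pif4-labelled libraries and 0, 0 and 0 in WT. AT3G22490 (chr3:7969681-7970843) was not detected in WT, with 0 counts, and was at least 425-fold higher in the pklpif4-labelled libraries. It had 24 counts in pkl, at least 3.77-fold above WT. The pif4-labelled libraries held 15 counts, at least 2.45-fold above WT. Both were again called by edgeR but not by limma-trend on FPKM. It overlaps the opposite-strand gene AT3G22480 by 25 bases, 2.51% of its exon length. ECP31 lies 781 bases from it and shares an identical stretch of 38 bases. AT5G53260 had 2.22, 2.03 and 2.61 CPM in the pklpif4-labelled libraries, 0, 0 and 0 in pkl, 0, 0 and 0.0496 in the pif4-labelled libraries and 0, 0 and 0 in WT. AT5G53270 had 2.48, 1.78 and 2.42 CPM in the pklpif4-labelled libraries, 0, 0 and 0.0465 in pkl, 0, 0.0421 and 0.149 in the pif4-labelled libraries and 0.0181, 0.0255 and 0 in WT. AT5G53260 and AT5G53270 (chr5:21604662-21605674) (chr5:21606271-21607297) were thus detected in all pklpif4-labelled libraries and close to 0 elsewhere. AT5G53260 was at least 49.6-fold higher in the pklpif4-labelled libraries than in WT, and AT5G53270 was 145-fold higher (interval 25.8 to 5797). These neighbours share an identical exon stretch of 99 bases, so their counts may not be separate measurements. RAB28, an ABA-responsive SMP gene, was detected in all genotypes and rose by 2.14 ± 0.27 in the pklpif4-labelled libraries (adjusted p = 3.69e-11). It was not called in pkl (-0.60 ± 0.32), except without WT replicate 3 (-0.87), or in the pif4-labelled libraries (-0.18 ± 0.31).

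The 10 dehydrins did not move together. Dehydrins carry lysine-rich K segments that bind membranes, and some act in seeds while others respond to cold and drought in leaves. Against WT, 5 were higher and 3 lower in the pklpif4-labelled libraries, 6 were higher and 3 lower in pkl, and 1 was higher and 5 lower in the pif4-labelled libraries. Over all genes tested, the shares higher and lower were 27.2% and 27.7% under the pklpif4 label and 27.1% and 26.5% in pkl. Under the pif4 label they were 16.2% each way. AT2G21490 had 55.1, 50.9 and 54.3 CPM in the pklpif4-labelled libraries, 1.03, 0.805 and 1.47 in pkl, 0.899, 0.632 and 0.645 in the pif4-labelled libraries and 0.0904, 0.56 and 0.216 in WT. The pklpif4-labelled libraries lay far above the rest, and the other genotypes were at low levels with WT lowest. AT2G21490 (chr2:9206016-9207125) rose by 7.63 ± 0.17, by 2.03 ± 0.30 in pkl and by 1.44 ± 0.33 under the pif4 label (adjusted p = 3.86e-41, 5.41e-08 and 0.000354). XERO1 had 22, 18.1 and 21.6 CPM in the pklpif4-labelled libraries, 0.921, 2.06 and 0.953 in pkl, 0.15, 0.674 and 0.298 in the pif4-labelled libraries and 0.488, 0.815 and 0.784 in WT. XERO1 (AT3G50980; chr3:18941925-18942865) was also far higher in the pklpif4-labelled libraries (4.92 ± 0.29, adjusted p = 9.91e-11). In pkl its value was 0.93 ± 0.37 (adjusted p = 0.0448), and the call was lost without pkl replicate 2 (0.47), without WT replicate 1, 2 or 3 (0.68, 1.07 and 1.03) or without pif4 replicate 3, and in DESeq2 (0.93 each). Under the pif4 label it was not called (-0.83 ± 0.47) unless pif4 replicate 2 or pkl replicate 2 was left out (-1.61 and -0.83) or low counts were kept (-0.82).

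RAB18, an ABA-induced dehydrin, was added to the named genes after its values were seen. RAB18 had 316, 314 and 320.0 CPM in the pklpif4-labelled libraries, 15.5, 14.5 and 14.8 in pkl and 19.3, 20.9 and 18.8 in the pif4-labelled libraries, and averaged 26 ± 2.09 CPM in WT. Its pklpif4-labelled libraries lay above all others, while every pkl and pif4-labelled library lay below WT. RAB18 (AT5G66400; chr5:26518277-26519242) rose by 3.61 ± 0.04 in the pklpif4-labelled libraries (adjusted p = 8.32e-95) and fell by 0.79 in pkl and by 0.39 under the pif4 label (adjusted p = 1.15e-27 and 1.84e-11). LTI30 had 7.14, 7.14 and 6.88 CPM in the pklpif4-labelled libraries, 5.97, 6.56 and 6.67 in pkl, 3.34, 3.24 and 3.03 in the pif4-labelled libraries and 4.14, 3.95 and 4.92 in WT. LTI30 (AT3G50970; chr3:18940777-18941554), a cold-induced dehydrin that lies 370 bases from XERO1, had a much smaller range, and rose by 0.71 ± 0.14 in the pklpif4-labelled libraries and by 0.56 ± 0.14 in pkl (adjusted p = 5.00e-06 and 0.000258). Its value under the pif4 label, -0.43 ± 0.15, was called, but not without WT replicate 3 (-0.34) or pif4 replicate 3 (-0.39). AT4G39130 rose by 5.32 ± 0.39 in the pklpif4-labelled libraries and by 2.14 ± 0.48 in pkl, and AT4G38410 was not called against WT under any label, except in the pklpif4-labelled libraries without WT replicate 1 (1.72) or pklpif4 replicate 2 (1.40).

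Unlike RAB18, the dehydrins HIRD11, COR47, ERD10 and ERD14 were lower or not called under the pklpif4 label. HIRD11 had 159, 159 and 171 CPM in the pklpif4-labelled libraries, 197, 209 and 200.2 in pkl, 231, 235 and 226 in the pif4-labelled libraries and 233, 229 and 228 in WT. HIRD11 (AT1G54410; chr1:20309775-20310767), a metal-binding dehydrin and the most abundant by mean FPKM over the 12 libraries, was lower in all pklpif4-labelled and pkl libraries than in WT (-0.50 ± 0.03 and -0.19 ± 0.03, adjusted p = 3.76e-32 and 1.84e-09), while the pif4-labelled libraries overlapped WT. COR47 had 144, 142 and 138 CPM in the pklpif4-labelled libraries, 204, 207 and 207 in pkl, 149, 145 and 149 in the pif4-labelled libraries and 182, 185 and 186 in WT. ERD10 had 24.9, 22.9 and 24.5 CPM in the pklpif4-labelled libraries, 51.9, 54.8 and 53.5 in pkl, 36.1, 40.4 and 40.7 in the pif4-labelled libraries and 66.3, 67.8 and 65.2 in WT. COR47 and ERD10 (AT1G20440; chr1:7084409-7085772) (AT1G20450; chr1:7088003-7089606), neighbours induced by cold and drought, were both lower in the pklpif4-labelled libraries, ERD10 by more (-1.46 ± 0.05, adjusted p = 1.34e-48) than COR47 (-0.38 ± 0.03, adjusted p = 1.67e-23). The pair differed in direction in pkl, where COR47 was slightly higher (0.16 ± 0.03) and ERD10 lower (-0.32 ± 0.05), and both were lower in the pif4-labelled libraries (-0.32 ± 0.03 and -0.77 ± 0.05). ERD14 was not called in the pklpif4-labelled libraries (0.02 ± 0.02) and stood at 0.28 ± 0.02 in pkl and -0.48 ± 0.02 in the pif4-labelled libraries.

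**Figure D3:**
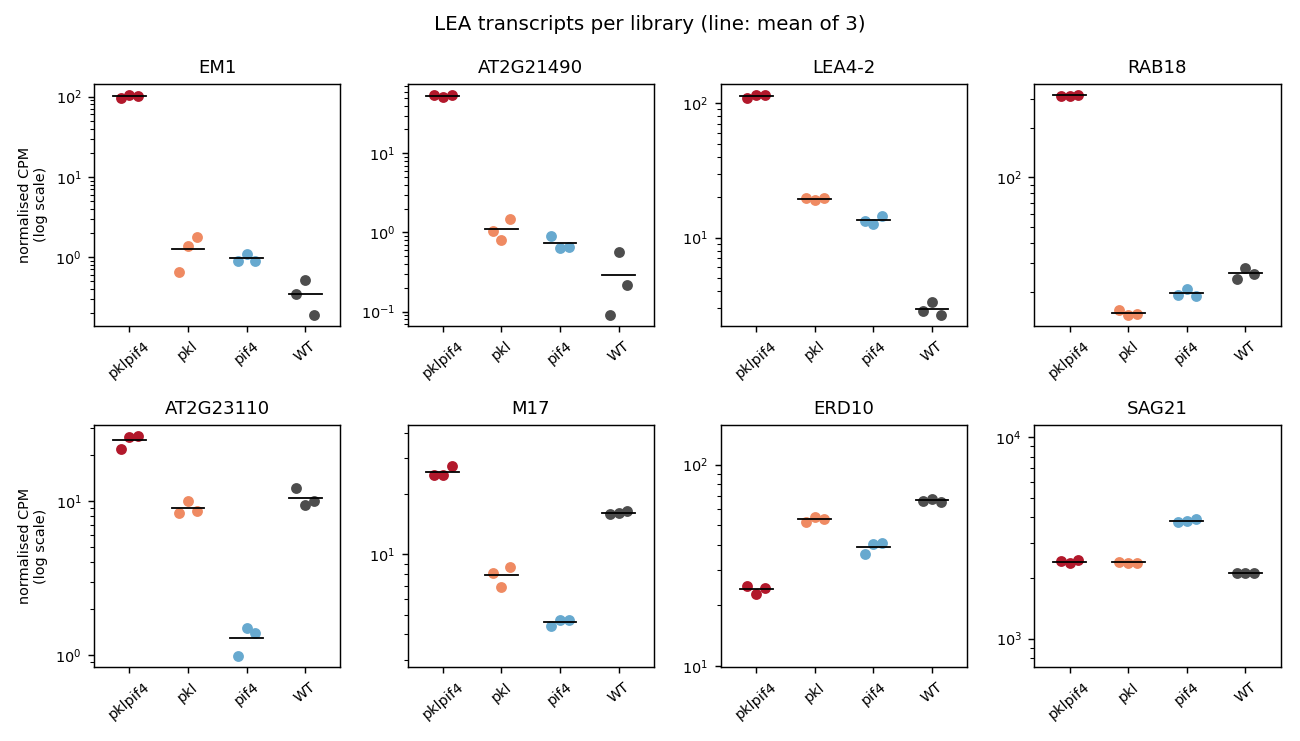
Normalised CPM (log scale) of 8 LEA genes in each library, with a point per library and a line at the mean of the 3 libraries of a genotype label. EM1, AT2G21490, LEA4-2 and RAB18 are highest in the pklpif4-labelled libraries, AT2G23110 and M17 are lowest in the pif4-labelled ones, ERD10 is lowest in the pklpif4-labelled ones, and SAG21 is highest in the pif4-labelled ones.

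The AtM genes M17 and M10, which are expressed in embryos, and the PvLEA18 gene AT2G23110 went in opposite directions under the pif4 and pklpif4 labels. AT2G23110 had 21.9, 26 and 26.5 CPM in the pklpif4-labelled libraries, 8.34, 9.97 and 8.6 in pkl, 0.984, 1.5 and 1.39 in the pif4-labelled libraries and 12.1, 9.47 and 10 in WT. The pif4-labelled libraries lay far below all others, the pkl libraries overlapped WT and the pklpif4-labelled ones were highest. AT2G23110 (chr2:9840456-9841366) was lower by -3.04 ± 0.13 on the log2 scale in the pif4-labelled libraries and higher by 1.23 ± 0.10 in the pklpif4-labelled ones (adjusted p = 3.77e-39 and 1.59e-21). Its value in pkl, -0.24 ± 0.10, lost the call without WT replicate 1 (-0.12), pkl replicate 1 or 3 (-0.19 and -0.22) or pklpif4 replicate 2 (-0.24), and in DESeq2, limma-trend and other scalings or filters (-0.23 to -0.15). M17 had 24.7, 24.7 and 27.4 CPM in the pklpif4-labelled libraries, 8.1, 6.91 and 8.63 in pkl, 4.41, 4.74 and 4.74 in the pif4-labelled libraries and 15.9, 16 and 16.5 in WT. M17 (AT2G41260; chr2:17206510-17207698) was thus lower than WT in pkl (-1.03 ± 0.09, adjusted p = 1.05e-18) and under the pif4 label (-1.80 ± 0.10, adjusted p = 1.50e-32), and higher in the pklpif4-labelled ones (0.67 ± 0.08, adjusted p = 1.59e-11), with no overlap between genotypes.

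M10 had 1.71, 1.29 and 0.939 CPM in the pklpif4-labelled libraries, 1.34, 0.852 and 1.53 in pkl, 0.0856, 0.0421 and 0.0993 in the pif4-labelled libraries and 0.434, 0.509 and 0.919 in WT. M10 (AT2G41280; chr2:17209697-17210423) was lower in the pif4-labelled libraries than in WT (-2.98 ± 0.55, adjusted p = 2.99e-06). Its higher values in the pklpif4-labelled libraries (1.11 ± 0.37, adjusted p = 0.00692) and in pkl (1.03 ± 0.37, adjusted p = 0.013) rest on few counts. The pklpif4 call was lost without WT replicate 1 (0.89) or pklpif4 replicate 1 (0.88), and the call in pkl without WT replicate 1 or 2 (0.81 and 0.92) or pkl replicate 3 (0.86). AT2G23120 had 76.1, 78 and 81.4 CPM in the pklpif4-labelled libraries, 96, 98.2 and 102 in pkl, 60.9, 60.3 and 65.6 in the pif4-labelled libraries and 83.5, 84.9 and 84.9 in WT. AT2G23120 (chr2:9842043-9842634), near AT2G23110 on the chromosome, had a small range, with 0.23 ± 0.04 in pkl and -0.44 ± 0.04 under the pif4 label (adjusted p = 1.12e-07 and 2.26e-18). Its value in the pklpif4-labelled libraries, -0.10 ± 0.04, lost the call without pklpif4 replicate 1 (-0.08), under scaling to library totals (-0.08) and in limma-trend on FPKM (-0.08).

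The LEA_3 gene SAG21, linked in Arabidopsis to senescence and oxidative stress, was the most abundant LEA transcript in every genotype. SAG21 had 2427, 2365 and 2445 CPM in the pklpif4-labelled libraries, 2413, 2378 and 2385 in pkl, 3787, 3824 and 3934 in the pif4-labelled libraries and 2109, 2112 and 2116 in WT. The pif4-labelled libraries stood alone at the top, the pklpif4-labelled and pkl libraries overlapped, and WT was lowest. SAG21 (AT4G02380; chr4:1046204-1046997) rose by 0.87 ± 0.02 in the pif4-labelled libraries, by 0.18 ± 0.02 in pkl and by 0.19 ± 0.02 in the pklpif4-labelled libraries (adjusted p = 1.23e-74, 6.18e-19 and 1.29e-20). DI21 had 93.9, 95.6 and 97.4 CPM in the pklpif4-labelled libraries, 90.3, 84.9 and 88.8 in pkl, 65.2, 66.4 and 72 in the pif4-labelled libraries and 51.8, 52.7 and 52.4 in WT. DI21 (AT4G15910; chr4:9028461-9029423), a drought-induced LEA_3 gene, rose under each label, by 0.87 ± 0.04, by 0.75 ± 0.04 in pkl and by 0.37 ± 0.04 in the pif4-labelled libraries. AT1G02820 was called lower in the pklpif4-labelled libraries (-0.37 ± 0.14, adjusted p = 0.0181), but not without WT replicate 2 or 3 (-0.33 and -0.34) or pklpif4 replicate 2 (-0.28).

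The LEA_2 proteins differ from the others in having a folded structure and less hydrophilic sequence. AT2G44060 had 119.9, 123 and 121 CPM in the pklpif4-labelled libraries, 121, 125 and 115 in pkl, 102, 102 and 99.2 in the pif4-labelled libraries and 119, 118 and 121 in WT. AT2G46140 had 11.9, 13.9 and 12.4 CPM in the pklpif4-labelled libraries, 10.9, 13.7 and 13.6 in pkl, 7.85, 9.44 and 9.6 in the pif4-labelled libraries and 5.37, 4.79 and 5.27 in WT. AT2G44060 (chr2:18226317-18228151) was called only under the pif4 label (-0.24 ± 0.03, adjusted p = 1.79e-09), where all 3 values lay below the rest. With library totals or in limma-trend it was also called in pkl, at 0.08. AT2G46140 (chr2:18959078-18960547) was above WT in every library of the mutant labels, by 1.31 ± 0.11 in the pklpif4-labelled libraries, 1.30 ± 0.11 in pkl and 0.80 ± 0.11 under the pif4 label (adjusted p = 7.46e-20, 1.04e-19 and 2.34e-09), and its pklpif4-labelled and pkl values overlapped. LEA14, a drought- and light-responsive member, was lower under each label (-0.29 ± 0.06, -0.20 ± 0.06 in pkl and -0.68 ± 0.06 in the pif4-labelled libraries).

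Set on a per-length scale, the order of LEA transcripts was rearranged in the pklpif4-labelled libraries. SAG21 led in all 4 genotypes, at 3429 ± 51.6 FPKM in the pklpif4-labelled libraries, 3513 ± 26.7 in pkl, 5534 ± 109 in the pif4-labelled libraries and 2962 ± 7.57 in WT. Next in the pklpif4-labelled libraries came AT3G02480 (379.7 ± 10.5 FPKM) and RAB18 (355 ± 3.12 FPKM), followed by ERD14 (279 ± 4.6 FPKM), LEA4-2 (232 ± 7.33 FPKM) and HIRD11 (222 ± 9.48 FPKM), of which LEA4-2 and HIRD11 did not differ beyond their spread. In WT the order after SAG21 was HIRD11 (309 ± 3.68 FPKM), ERD14 (272 ± 4.55 FPKM), COR47 (148 ± 1.93 FPKM) and AT2G23120 (139.6 ± 1.33 FPKM), while AT3G02480 had 9.66 ± 2.06 FPKM and RAB18 28.7 ± 2.29 FPKM. Summed over the LEA genes other than SAG21, the level was 3112 ± 11.9 CPM in the pklpif4-labelled libraries, 1358 ± 12.1 in pkl, 1029 ± 6.74 in the pif4-labelled libraries and 1190.0 ± 8.41 in WT. Without SAG21, the pif4-labelled sum was thus the lowest although 20 LEA genes were called higher there, and the dehydrins COR47, ERD10 and ERD14 were among the 13 that were lower. With SAG21 included, the order changed. The sum was then 5524 ± 41.7 CPM in the pklpif4-labelled libraries, 3749.8 ± 6.77 in pkl, 4877 ± 77.3 in the pif4-labelled libraries and 3303 ± 10.6 in WT.

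Most LEA genes were also higher in the pklpif4-labelled libraries than under either other mutant label. Against pkl, 29 LEA genes were higher and 7 lower (background 39.9% called, 19.5% and 20.5%), with a median log2 change of 3.16. Of these, 28 were at least 2-fold higher (2.78% of all genes tested) and 3 at least 2-fold lower (3.59%). Against the pif4-labelled libraries, 37 were higher and 5 lower (background 50.2% called, 25.5% and 24.7%), with a median of 3.78. Of these, 30 were at least 2-fold higher (5.69%) and 2 at least 2-fold lower (3.66%). EM1 was 6.37 ± 0.13 higher than in pkl and 6.71 ± 0.14 higher than in the pif4-labelled libraries, both on the log2 scale (adjusted p = 1.64e-22 and 1.18e-22). LEA4-2 differed less, by 2.54 ± 0.05 and 3.08 ± 0.06 (adjusted p = 5.24e-68 and 5.84e-74). RAB18, which was below WT in both, was higher by 4.40 ± 0.04 and 4.01 ± 0.04 (adjusted p = 1.46e-100 and 6.44e-98). ERD10 was lower than in either, by -1.15 ± 0.05 and -0.70 ± 0.05 (adjusted p = 3.68e-39 and 1.53e-22), and SAG21 was lower than in the pif4-labelled libraries only (-0.67 ± 0.02, adjusted p = 6.91e-65), with 0.01 ± 0.02 against pkl. Without the 5 genes that entered through the pklpif4-labelled libraries, 24 of 41 were higher and 7 lower than in pkl (median 2.54), and 32 higher and 5 lower than in the pif4-labelled libraries (median 3.08).

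The interaction tests whether the change under the pkl label was alike with and without the pif4 label. It is the log2 change of the pklpif4-labelled against the pif4-labelled libraries minus that of pkl against WT. It was above 0 for 30 LEA genes and below 0 for 7 (background 31.9% called, 15.3% and 16.5%). At least 2-fold above were 24 (2.81% of all genes tested) and at least 2-fold below was 1, COR15B (5.01%). Of the 41 genes with counts above the detection limit in all genotypes, 28 were above and 7 below 0, with a median of 1.71. EM1 had 4.91 ± 0.52 (adjusted p = 3.35e-08), with a change of 6.71 from the pif4-labelled to the pklpif4-labelled libraries and of 1.80 from WT to pkl. XERO1 had 4.82 ± 0.55 (adjusted p = 1.79e-06). RAB18 had 4.79 ± 0.07 (adjusted p = 1.05e-86), with a rise of 4.01 from the pif4-labelled to the pklpif4-labelled libraries and a fall, -0.79, from WT to pkl. AT2G23110 (4.51 ± 0.17), AT2G42560 (4.23 ± 0.20), AT2G21490 (4.16 ± 0.46) and LEA4-5 (4.07 ± 0.14) had the next values, and neighbours in this order do not all differ beyond their SE.

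Other genes had smaller values, of unlike size, and not all of them rose under every label. LEA4-2 had 0.35 ± 0.11 (adjusted p = 0.00683), a call that was lost without WT replicate 2 (0.27), and AT3G02480 had 0.92 ± 0.10 (adjusted p = 1.58e-14), whereas AT3G15670 and ECP63, whose genotypes formed steps like those of LEA4-2, had 3.16 and 3.10. For AT5G44310 the interaction was 2.29 ± 0.74 (adjusted p = 0.0407), and its call was lost without any WT replicate (2.05 to 2.56), without pif4 replicate 1 or 3 (2.13 and 2.27) and without pklpif4 replicate 1 (2.27). AT4G39130 had 2.11 ± 0.69 (adjusted p = 0.012), lost without WT replicate 3 (1.78) and with halved counts (2.04), and LTI30 had 0.57 ± 0.20 (adjusted p = 0.0167), lost without WT replicate 3 (0.48). Below 0 were COR15B (-3.31 ± 0.80), SAG21 (-0.85 ± 0.02), AT2G46140 (-0.79 ± 0.15), ERD10 (-0.38 ± 0.07), HIRD11 (-0.31 ± 0.04), DI21 (-0.26 ± 0.06) and COR47 (-0.22 ± 0.04). For SAG21, AT2G46140 and DI21 this means that the combined label gave less than the sum of the separate changes on the log2 scale, since each rose under every label.

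**Figure D4:**
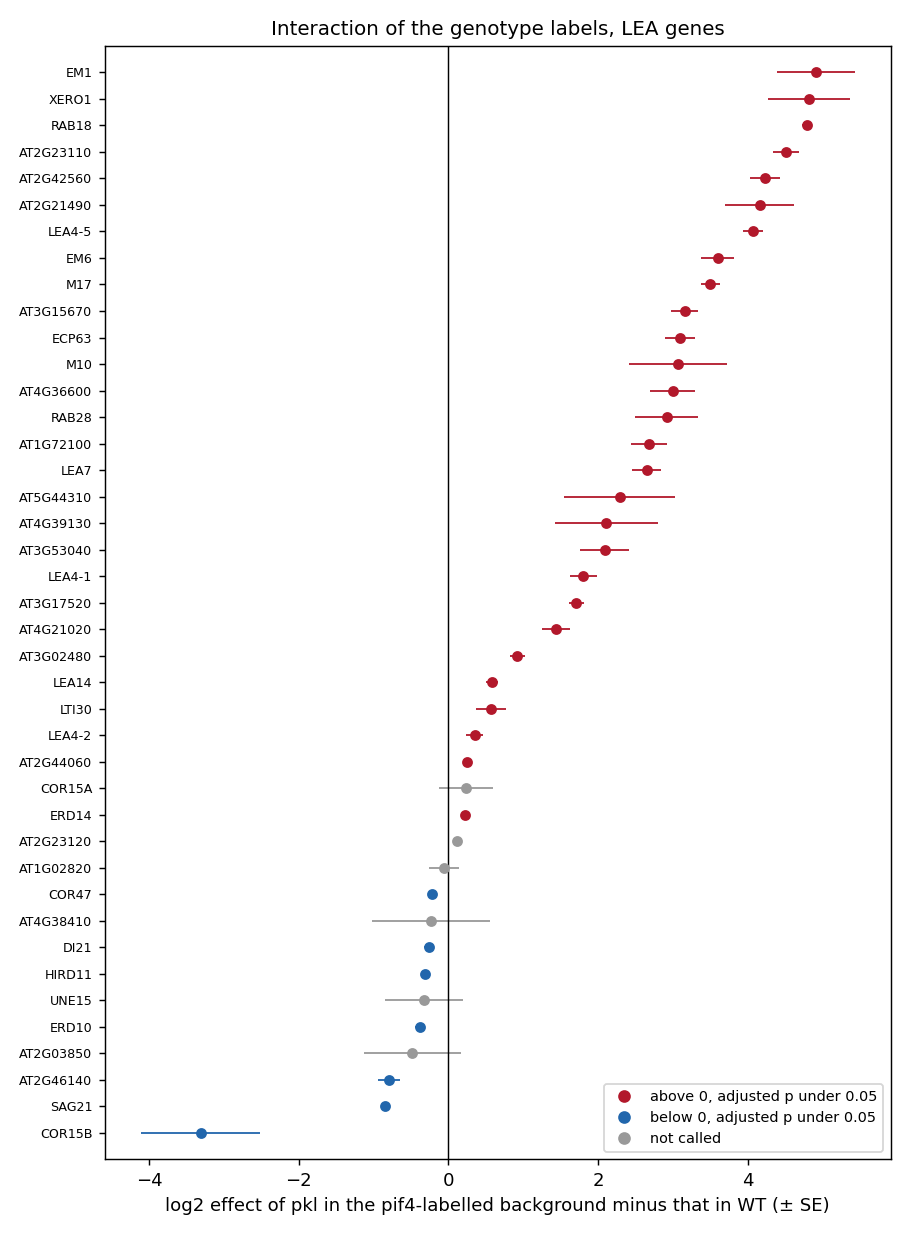
Interaction (log2 change of pklpif4-labelled against pif4-labelled libraries minus that of pkl against WT, ± SE) of the 41 LEA genes with counts above the detection limit in every genotype. Red points (28 genes) lie above 0 and blue points (7 genes) below 0 at an adjusted p under 0.05 (edgeR), and EM1 has the highest value, 4.91.

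Known regulators of LEA genes, taken with some ABA- and cold-responsive genes, were called higher and lower in like numbers under the pklpif4 and pkl labels. Under the pif4 label, most of those called were lower. The list held 53 genes: 24 seed regulators, 23 regulators of the ABA and cold responses and 6 responsive genes outside the LEA families, of which 45 were tested. In the pklpif4-labelled libraries 15 were higher and 14 lower than in WT, in pkl 14 were higher and 15 lower, and in the pif4-labelled libraries 3 were higher and 21 lower. The shares of all genes tested were 27.2% higher and 27.7% lower, 27.1% and 26.5% in pkl, and 16.2% each way under the pif4 label. Counts under the pklpif4 and pkl labels lay near these shares and are not read as a result about the listed genes. Median log2 changes of the 45 genes were -0.08, -0.00 and -0.07. Of 19 seed regulators tested, 7 were higher and 3 lower in the pklpif4-labelled libraries, 6 and 3 in pkl, and 2 and 3 in the pif4-labelled libraries. Of 20 ABA and cold regulators, 6 were higher and 9 lower, 7 and 7, and 1 and 13 under these labels in turn. ABI4, a seed regulator counted as higher under the pklpif4 label, had enough counts for the test only in the pklpif4-labelled libraries. ABI3, the B3-domain activator of seed genes, had 30.3, 30.1 and 31.6 CPM in the pklpif4-labelled libraries, 5.84, 5.37 and 4.98 in pkl, 4.15, 3.98 and 3.87 in the pif4-labelled libraries and 1.47, 1.68 and 1.73 in WT. Its 4 genotypes did not overlap and had the order of LEA4-2, with log2 changes against WT of 4.25 ± 0.12, 1.75 ± 0.13 in pkl and 1.31 ± 0.14 under the pif4 label (adjusted p = 2.16e-57, 2.01e-22 and 2.49e-14). ABI5, the bZIP activator that binds ABA-responsive elements, averaged 20.9 ± 0.639 CPM in the pklpif4-labelled libraries, 1.93 ± 0.406 in pkl, 1.03 ± 0.0962 in the pif4-labelled libraries and 0.726 ± 0.271 in WT. It rose by 4.82 ± 0.17 in the pklpif4-labelled libraries and by 1.41 ± 0.20 in pkl (adjusted p = 4.02e-49 and 2.02e-09), while 0.48 ± 0.23 under the pif4 label was not called, except without WT replicate 2 (0.69).

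ABI4, an AP2-domain factor of the same pathway, had 190 counts in the pklpif4-labelled libraries, 3 in pkl, 13 in the pif4-labelled libraries and 2 in WT. Other seed activators did not follow ABI3. FUS3 was not called in any comparison with WT and averaged 0.604 ± 0.116 CPM in the pklpif4-labelled libraries, 0.736 ± 0.214 in pkl, 0.69 ± 0.0237 in the pif4-labelled libraries and 0.75 ± 0.323 in WT. LEC1 and LEC2 were below the count filter, with 0 and 18 in the pklpif4-labelled libraries, 4 and 16 in pkl, 2 and 0 in the pif4-labelled libraries and 0 and 12 in WT. The LEC1 relative L1L was called lower in the pklpif4-labelled libraries than in pkl (-1.74 ± 0.69, adjusted p = 0.0351), but not without pkl replicate 1 or 3 (-1.60 and -1.44), without any pklpif4 replicate (-1.82 to -1.61), with low counts kept (-1.73) or in limma-trend (-0.25). VAL1, a repressor of seed genes, was slightly higher in the pklpif4-labelled libraries and in pkl than in WT (0.20 ± 0.04 and 0.27 ± 0.04, adjusted p = 5.73e-05 and 1.18e-07). Its relative VAL2 was not called in the pklpif4-labelled libraries (-0.02 ± 0.05), and its call in pkl (-0.14 ± 0.05) was lost without WT replicate 2 (-0.13) or pkl replicate 1 (-0.11), with library totals (-0.08) and in limma-trend (-0.07). AFP3, which binds ABI5 and represses ABA responses, was lower in the pklpif4-labelled (-1.11 ± 0.06) and pif4-labelled (-1.51 ± 0.06) libraries than in WT (adjusted p = 1.13e-31 and 6.96e-41).

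Among ABA genes, NCED3, which makes the precursor of ABA under drought, was lower under each label, by -2.06 ± 0.14 in the pklpif4-labelled libraries, -0.92 ± 0.13 in pkl and -1.20 ± 0.13 under the pif4 label (adjusted p = 6.99e-26, 5.50e-10 and 7.65e-14). The 3 HAI phosphatases, which are ABA-induced repressors of the response, each behaved differently. HAI1 was lower under each label (-1.36 ± 0.08, -0.54 ± 0.07 in pkl and -1.26 ± 0.08 in the pif4-labelled libraries). HAI2 was higher in the pklpif4-labelled libraries (1.41 ± 0.25) but lower in pkl (-1.86 ± 0.31) and in the pif4-labelled libraries (-1.44 ± 0.30), which is the order of RAB18. HAI3 averaged 5.49 ± 0.478 CPM in the pklpif4-labelled libraries, 1.03 ± 0.285 in pkl, 0.453 ± 0.071 in the pif4-labelled libraries and 0.272 ± 0.0654 in WT, and was called higher in the pklpif4-labelled libraries and in pkl (1.86 ± 0.33). DREB2A, a drought factor that binds the CCGAC core, averaged 10.6 ± 0.332 CPM in the pklpif4-labelled libraries, 4.74 ± 0.499 in pkl, 1.94 ± 0.175 in the pif4-labelled libraries and 2.69 ± 0.319 in WT, and rose by 1.97 ± 0.15 under the pklpif4 label. Its relative DREB2B rose by 1.47 ± 0.24 in pkl (adjusted p = 1.24e-07). The cold factors CBF1, CBF3 and CBF4 did not pass the count filter, and CBF2 was not called against WT.

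Of the responsive genes outside the LEA families, RD29B rose by 2.81 ± 0.05 in the pklpif4-labelled libraries (adjusted p = 5.78e-74). It averaged 132 ± 2.81 CPM there, 23.4 ± 1.49 in pkl, 19.4 ± 1.45 in the pif4-labelled libraries and 18.8 ± 1.32 in WT. RD29A, its neighbour gene with C-repeat elements, was higher in the pklpif4-labelled libraries than in pkl (1.05 ± 0.07) and than in the pif4-labelled libraries (1.31 ± 0.07). The cold-induced KIN2 was lower in the pklpif4-labelled libraries than in WT (-1.20 ± 0.06, adjusted p = 2.30e-38), as were COR47, ERD10 and COR15A. LTI30, also cold-induced, was higher there (0.71 ± 0.14). Of the 6 responsive genes outside the LEA families, 2 were higher, 2 lower and 2 not called in the pklpif4-labelled libraries against WT. Over all genes tested, 27.2% were higher and 27.7% lower. KIN1 was lower in pkl (-3.32 ± 0.59, adjusted p = 6.54e-07). Under the pif4 label it stood at -1.20 ± 0.47, a call that was lost without WT replicate 1 or 2 (-0.88 and -1.17) and without pif4 replicate 1 or 2 (-1.08 and -1.07).

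**Figure D5:**
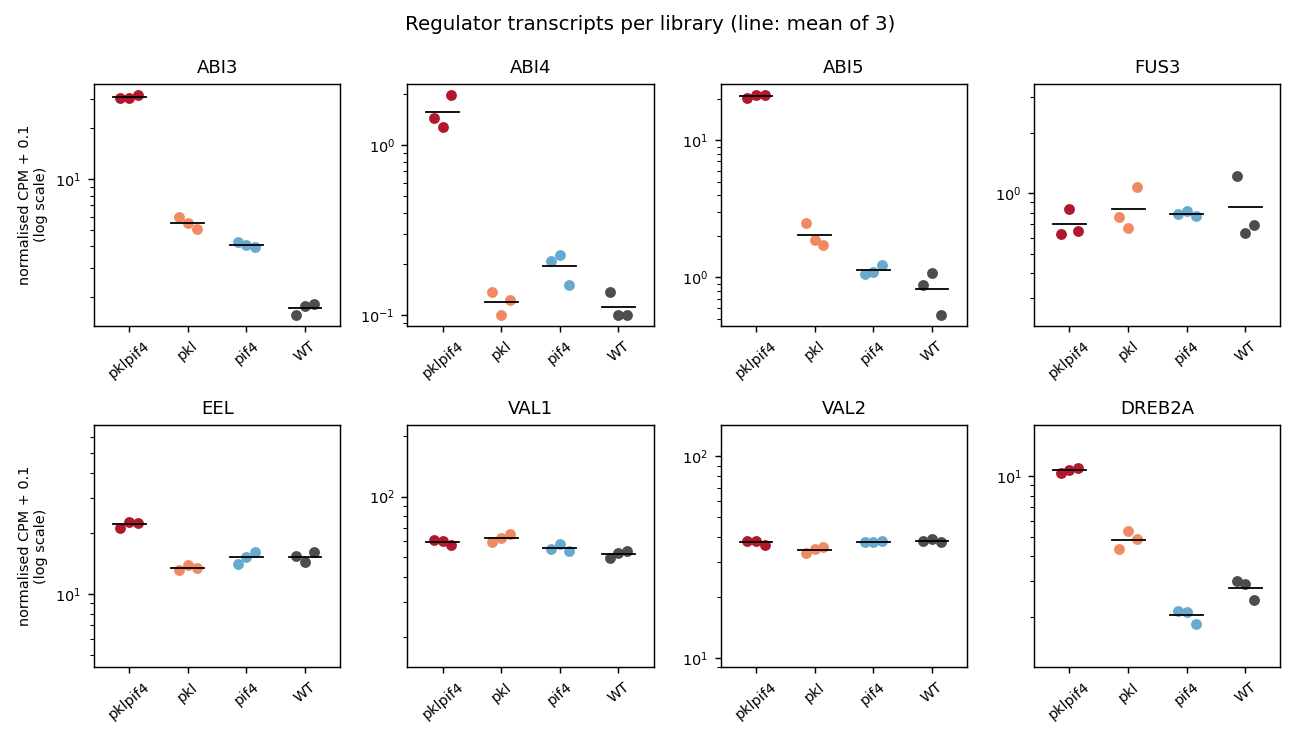
Normalised CPM + 0.1 (log scale) of 8 regulators in each library, with a point per library and a line at the mean of the 3 libraries of a genotype label. ABI3 and ABI5 are highest in the 3 pklpif4-labelled libraries and next in pkl, whereas VAL1 and VAL2 lie within a narrow range in all 12.

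Embryo markers other than LEA genes were also higher in the pklpif4-labelled libraries, but differed from the LEA genes under the pif4 label. All 14 genes of an embryo and mature seed list (storage globulins and albumins, oleosins, a caleosin and a peroxiredoxin) were higher in the pklpif4-labelled libraries than in WT, 9 were higher and 3 lower in pkl, and 3 were higher and 4 lower in the pif4-labelled libraries. For this and the following lists, the shares of all genes tested were 27.2% higher and 27.7% lower under the pklpif4 label. They were 27.1% and 26.5% in pkl and 16.2% each way under the pif4 label. The caleosin gene CLO1 entered the test only through its counts in the pklpif4-labelled libraries (373, against 28 in pkl). The median log2 changes of the 14 were 6.58, 2.09 in pkl and -0.12 in the pif4-labelled libraries, beside 4.96, 0.84 and 0.68 for the LEA genes. Without the 5 LEA genes that entered through the pklpif4-labelled libraries, the LEA medians were 2.14, 0.93 and 0.61. The summed level of the 14 embryo markers was 4329.7 to 4382 CPM in the pklpif4-labelled libraries, 77.5 to 85.4 in pkl, 58.2 to 60.7 in the pif4-labelled libraries and 75 to 77.4 in WT, with 2 of the 14 at 0 in the pif4-labelled libraries and 2 at 0 in WT. Of 10 root and root hair markers, 7 were higher and 2 lower in the pklpif4-labelled libraries, 8 higher and 1 lower in pkl and 10 higher in the pif4-labelled libraries. Their sum was 152 to 159 CPM in the pklpif4-labelled libraries, 191 to 199 in pkl, 198 to 209 in the pif4-labelled libraries and 109.8 to 118 in WT, with none of the 10 at 0. Of 8 photosynthetic leaf genes, 5 were higher and 2 lower in the pklpif4-labelled libraries, 8 were lower in pkl and 7 lower in the pif4-labelled libraries. That sum was 45202 to 46381 CPM in the pklpif4-labelled libraries, 31580.0 to 32679.5 in pkl, 37433 to 37763 in the pif4-labelled libraries and 41325 to 42175 in WT. The part of embryo cells, of ungerminated seed or of organ proportions in the LEA levels was not tested.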

How the data were processed

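Poly(A) RNA of whole seedlings was sequenced on a HiSeq Xten instrument, per the labels' protocols. Per the submitters' processing notes, the authors used fastp, HISAT2 2.1.0 and SAMtools 1.6 with the build TAIR10. No source used here names the counting tool, whether it used strand, or how it treated reads that fit several genes. The authors deposited raw counts per gene and FPKM, and recomputing FPKM from counts and exon lengths matched within a relative difference of 5.70e-09. Red-light tables held the same values (806688 compared, 0 differing), and the 24 columns they repeat were not used.

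Counts of the 12 libraries were fitted with edgeR 4.0.16 (R 4.3.3): TMM factors, filterByExpr (minimum count 10, minimum total 15), group means and the robust quasi-likelihood test, two-sided, with Benjamini-Hochberg adjustment over 22130 genes and a threshold of 0.05. On simulated data with 200 changed genes the fit was tested before use. CPM use TMM factors and serve to compare a gene between libraries; FPKM serve to compare genes. The SE is the log2 change divided by the square root of F. Among counts of 1 to 8, 70.9% to 74.3% were even. Intervals and floors use counts halved to fragments. Replicate numbers did not pair the libraries (correlations -0.0142 to 0.0183).

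The members, lists and tests were chosen with earlier results of these data known. Genes given per library were, in each of 9 families, the most abundant and the most changed member, members with opposite changes of at least 2-fold, and neighbours. Alternatives were RLE factors, library totals, other filters, DESeq2 1.42.0, limma-trend (limma 3.58.1) on log2(FPKM + 1), halved counts, a replicate block, only the genotypes compared, and leaving out each library. Protein sequences were not used here.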

Additional observations from a re-analysis of the deposited data

Results flagged for a closer look

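The interaction was called by edgeR for 35 of the 41 LEA genes with counts above the detection limit in every genotype. Over all genes tested, 31.9% were called. Each value is the log2 change of the pklpif4-labelled against the pif4-labelled libraries minus that of pkl against WT. Above 3 were EM1 (4.91), XERO1 (4.82), RAB18 (4.79), AT2G23110 (4.51), AT2G42560 (4.23), AT2G21490 (4.16), LEA4-5 (4.07), EM6 (3.60), M17 (3.50), AT3G15670 (3.16), ECP63 (3.10) and M10 (3.07), with AT4G36600 at 3.00. Between 1 and 3 were RAB28 (2.92), AT1G72100 (2.68), LEA7 (2.65), AT5G44310 (2.29), AT4G39130 (2.11), AT3G53040 (2.09), LEA4-1 (1.80), AT3G17520 (1.71) and AT4G21020 (1.44). Smaller positive values were those of AT3G02480 (0.92), LEA14 (0.59), LTI30 (0.57), LEA4-2 (0.35), AT2G44060 (0.25) and ERD14 (0.22). Negative values were those of COR15B (-3.31), SAG21 (-0.85), AT2G46140 (-0.79), ERD10 (-0.38), HIRD11 (-0.31), DI21 (-0.26) and COR47 (-0.22). The calls of AT5G44310, AT4G39130, LEA4-2 and LTI30 were lost when certain single libraries were left out, as given above. A further 2 genes, AT2G18340 and ECP31, were called but had a genotype at or under the detection limit, so their fitted values are not given. The part of the embryo, root and leaf marker levels given above in these values was not tested.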

How the results depend on the processing

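For 46 tested LEA genes in 6 comparisons, counts of higher, lower and called genes stayed within 1.5 times of the reported ones under each alternative run, with 1 exception: the 5 genes lower in the pklpif4-labelled than in the pif4-labelled libraries became 3 with the filter at a mean of 5 CPM, which tests fewer genes. With the replicate number as a block, which is not supported by pairing, 33 LEA genes were higher and 9 lower in the pklpif4-labelled libraries than in WT, as without it, and 2 gene calls changed, KIN1 under the pif4 label (-1.15) and L1L in the pklpif4-labelled libraries against pkl (-1.64). With 1 library left out, 32 to 34 LEA genes were higher and 7 to 9 lower in the pklpif4-labelled libraries, 26 to 29 and 6 to 9 in pkl, and 20 to 21 and 12 to 14 in the pif4-labelled libraries, each against WT. Of 7849 values of 64 genes under alternatives, 103 lost and 59 gained a call, 105 of these when a library was left out, and 0 reversed. The alternatives without the 5 genes that entered through the pklpif4-labelled libraries were chosen after seeing the data. Scaling moved the median of all genes by at most 0.084 in size (-0.084, library totals, interaction). Depth limits COR15B, M10, UNE15 and the SMP genes other than RAB28 outside the pklpif4-labelled libraries.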
